A study of Arabidopsis thaliana with 12 samples.

Results

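LAS (AT1G55580), SPL (AT4G27330) and AGL26 (AT5G26880) are 3 regulators of plant development by name, and each was measured by 1 feature that lists no other gene. They were chosen by name with earlier results of the same comparison in view, so their differences between genotypes are given as a description with no test. They make up 3 of the 691 genes that have a feature of their own, on an array table of 3439 features. A further feature lists AGL26 together with 3 other genes and was not used. The 12 arrays held total RNA of Arabidopsis thaliana plants of the Landsberg ecotype. The wild type (WT) gave 6 arrays and the flu mutant 6. Both genotypes were kept in darkness for 12 h before harvest, and no light-treated group was compared here. The flu mutant lacks FLU, a negative regulator that holds back chlorophyll synthesis in the dark. The sources used here give neither the tissue, nor the age of the plants, nor the flu allele, and nothing says whether arrays of 1 genotype came from separate plants. In such bulk RNA, fewer cells of a type and less RNA per cell cannot be told apart.

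LAS, LATERAL SUPPRESSOR, belongs to the GRAS family of transcription regulators and is required for axillary meristems to form in the axils of leaves, where it is expressed in narrow boundary zones. SPL, SPOROCYTELESS, also called NOZZLE, is required in anthers and ovules for the cells that will undergo meiosis to form, and acts by recruiting corepressors of the TOPLESS family. AGL26 carries a name of the AGAMOUS-like series, which is used for MADS-box genes. No protein sequence was at hand to check whether AT5G26880 encodes a MADS domain, so no role is given to it here. The product may instead be an RNA methyltransferase of the SpoU family, which was not checked, and AGL26 is counted among regulators by its name alone. In the RefSeq table of assembly TAIR10.1 the annotated span of AGL26 overlaps that of a second protein-coding gene, AT5G26865, whereas LAS and SPL overlap no other protein-coding gene.

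The deposited values are linear intensities of unknown scaling, from 0 to an upper limit of 100 on every array. The median intensity of a WT array was 0.443 to 0.491, and that of a flu array 0.426 to 0.442. FLU itself had no listed feature and was not analysed here. Of 18 marker genes for flower, shoot apex, root and leaf mesophyll, 1 had a feature of its own (LHB1B2, a leaf light-harvesting protein), so the tissue could not be checked against its markers. Arrays 1 and 2, 3 and 4, and 5 and 6 of a genotype resembled each other in an earlier look at these data and are called couples below. The labels do not name couples.

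LAS was lower in flu. Its intensity in WT was 0.565, 0.509, 0.756, 0.713, 0.819 and 0.773 on arrays 1 to 6. In flu it was 0.173, 0.229, 0.207, 0.290, 0.249 and 0.371 on arrays 1 to 6. All 6 flu arrays lay below all 6 WT arrays, and the groups did not overlap. Non-overlapping groups are common on these arrays, at 34.5% of the 692 features with 1 gene, and 22.3% have flu as the lower group. The contrast was part of how LAS was chosen, so nothing is read from that share. The mean intensity of LAS was 0.689 ± 0.135 in WT and 0.253 ± 0.0547 in flu (SD over couple means, n = 3 per genotype).

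On the normalised log2 scale, used for all differences below, LAS stood at -1.30 for flu minus WT, with a standard error of 0.18 over arrays and 0.23 over couple means. That is 2.46-fold lower in flu, or 2.77-fold on the values as deposited. No LAS value came near the floor of 0.0236 that was set under low intensities. The difference was of like size in each couple, at -1.28 in arrays 1 and 2, -1.41 in arrays 3 and 4 and -1.22 in arrays 5 and 6. In WT, couple means of LAS ranged over 0.52 on the log2 scale, and in flu over 0.57, each less than the distance between the genotypes. Both genotypes had their lowest LAS couple in arrays 1 and 2 and their highest in arrays 5 and 6.

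SPL was higher in flu. Its intensity in WT was 0.343, 0.424, 0.341, 0.347, 0.267 and 0.276 on arrays 1 to 6. In flu it was 0.380, 0.554, 0.572, 0.631, 0.646 and 0.616 on arrays 1 to 6. Of the 6 flu arrays 5 lay above every WT array, and flu array 1 lay below WT array 2, so the groups overlapped by 1 array. The mean intensity was 0.333 ± 0.0568 in WT and 0.567 ± 0.0872 in flu (SD over couple means, n = 3 per genotype). The log2 difference was 0.91, with a standard error of 0.16 over arrays and 0.21 over couple means. That is 1.88-fold higher in flu, or 1.70-fold as deposited.

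**Figure D1:**
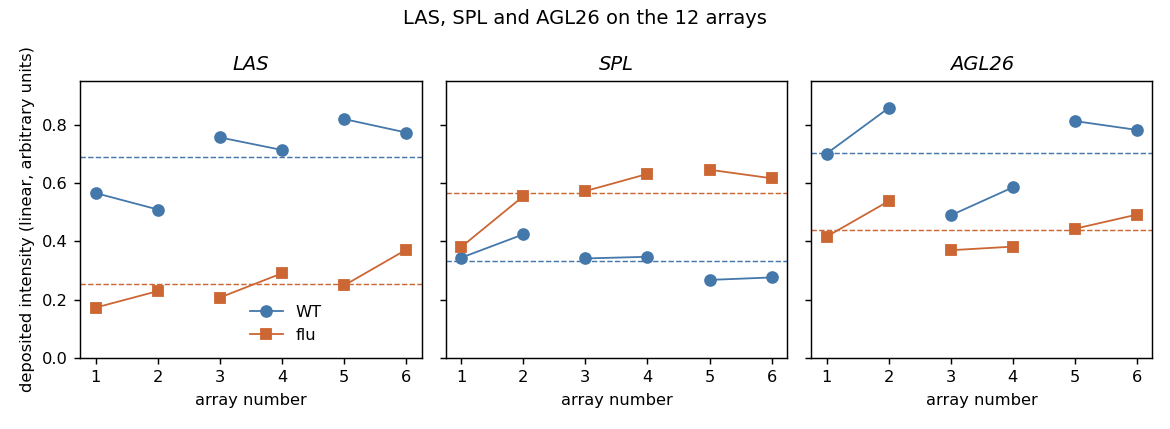
Deposited intensity (linear, arbitrary units) of LAS, SPL and AGL26 on each array, by array number. Circles are WT, squares are flu, lines join the 2 arrays of a couple, and dashed lines are the means of 6 arrays. LAS is lower in all 6 flu arrays, SPL is higher in flu with the smallest gap in arrays 1 and 2, and AGL26 has its lowest couple in arrays 3 and 4 in both genotypes.

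The size of the SPL difference depended on the couple. It was 0.35 in arrays 1 and 2, 1.01 in arrays 3 and 4 and 1.38 in arrays 5 and 6. Both genotypes contributed to this spread in opposite directions. WT had its highest SPL couple in arrays 1 and 2 (mean intensity 0.384) and its lowest in arrays 5 and 6 (0.272), while flu had its lowest couple in arrays 1 and 2 (0.467) and its highest in arrays 5 and 6 (0.631). Same-numbered arrays gave differences from 0.26 in array 1 to 1.42 in array 5, all of the same sign on this scale, but pairs 1 and 2 turned to -0.18 and -0.044 when the position of the features was allowed for, as described for the strips of feature numbers.

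AGL26 was lower in flu by a smaller amount. Its intensity in WT was 0.701, 0.857, 0.489, 0.585, 0.813 and 0.782 on arrays 1 to 6. In flu it was 0.416, 0.538, 0.369, 0.382, 0.443 and 0.492 on arrays 1 to 6. WT array 3 lay below the 2 highest flu arrays, so the groups overlapped, and 4 flu arrays lay below every WT array. The mean intensity was 0.704 ± 0.145 in WT and 0.440 ± 0.0559 in flu (SD over couple means, n = 3 per genotype).

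The log2 difference of AGL26 was -0.55, with a standard error of 0.17 over arrays and 0.24 over couple means, or 1.47-fold lower in flu. The values as deposited gave 1.59-fold. Flu was the lower in each of the 6 pairs of same-numbered arrays. The differences by couple were -0.66, -0.34 and -0.66. In both genotypes arrays 3 and 4 were the low couple, at a mean intensity of 0.537 in WT and 0.375 in flu. Couple means of AGL26 ranged over 0.66 on the log2 scale in WT, more than the distance between the genotypes, and over 0.34 in flu.

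**Figure D2:**
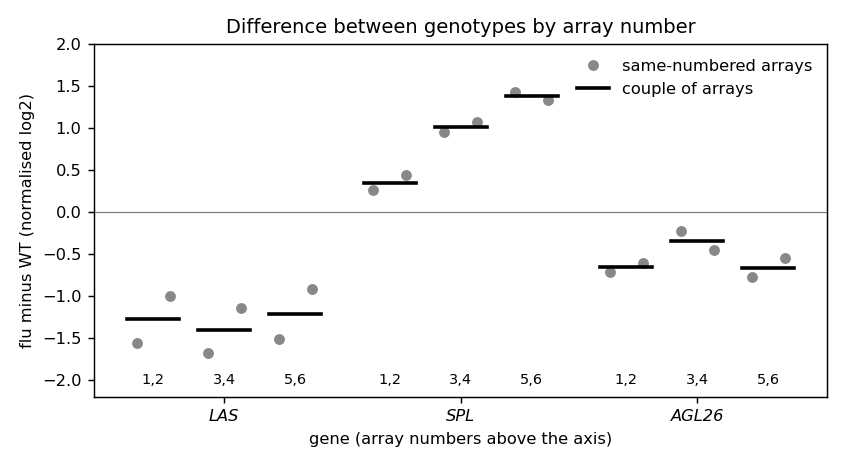
Flu minus WT on the normalised log2 scale for each pair of same-numbered arrays (points) and each couple (bars, labelled with their array numbers). LAS stays between -1.67 and -0.92 in every pair, SPL lies at 0.35, 1.01 and 1.38 in its 3 couples, and AGL26 lies between -0.78 and -0.23.

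The mean gap between the 2 arrays of a couple was 0.12 for LAS, 0.13 for SPL and 0.20 for AGL26 in WT on the log2 scale. In flu it was 0.44, 0.24 and 0.19, so LAS in flu had the widest mean gap within couples. The widest gap in a single couple was 0.51, between flu arrays 1 and 2 for SPL. A difference among couples, with genotype as a term, can be tested apart from the contrast used to choose the genes. In a limma fit on couple means, chosen after the values had been seen, 0 of 3439 features (0%) passed at an adjusted p below 0.05. An unadjusted p below 0.05 was found for 428 of the 3439, LAS among them, which is more than 1 in 20. The fit leaves few residual degrees of freedom, and the couples were picked by likeness in these same data. The count of 0 therefore does not show that couples are alike. The unadjusted p was 0.042 for LAS, 0.062 for AGL26 and 0.97 for SPL (limma adjusted p = 0.39, 0.41 and 1). The term takes a couple to shift both genotypes alike, which the SPL values above did not do.

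Correlations among the 3 genes were mostly those of the genotype difference. Over the 12 arrays the Pearson correlation of normalised log2 values was -0.80 between LAS and SPL, 0.68 between LAS and AGL26 and -0.59 between SPL and AGL26. After each genotype's mean was subtracted these correlations were 0.06, 0.06 and 0.12. Behind the first of them lay opposite values by genotype, -0.97 among the 6 WT arrays and 0.76 among the 6 flu arrays for LAS and SPL. These describe 6 arrays in 3 couples each, and arrays of a couple are not independent.

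The difference between genotypes on these arrays follows the feature number. It was described earlier as 48 strips, each holding 6 consecutive numbers and coming back at a fixed interval, and the interval and the width were chosen on these data. The sources used here do not say what the numbers stand for. Strip means of the log2 difference ranged from -0.67 to 0.61, with 24 strips below 0 and 24 above. Each of the 3 genes had the sign of its strip. LAS lay in a strip whose 71 other features averaged -0.59, with 57 of them lower in flu, and 14 of the 71 had a difference at or below that of LAS. SPL lay in a strip whose 71 other features averaged 0.31, with 47 of them higher in flu, and 18 had a difference at or above that of SPL.

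AGL26 did not stand apart from its strip. The 69 other features there averaged -0.54, next to -0.55 for AGL26 itself, and 40 of them had a difference at or below it. After the mean deviation of each strip was subtracted from each array, AGL26 stood at -0.013, LAS at -0.70 and SPL at 0.59. With strips centred, LAS thus kept 6 flu arrays below its WT mean, but flu array 6 (-1.11) lay above WT arrays 1 and 2 (-1.18 and -1.43), and flu array 4 (-1.32) above WT array 2. All 6 pairs of same-numbered arrays stayed lower in flu for LAS, at -1.18 to -0.27. SPL with strips centred was at -1.47, -0.99 and -0.96 in flu arrays 1, 2 and 3, all below WT array 2 (-0.94), and flu array 1 lay below WT array 1 (-1.29) too. In arrays 1 and 2 the SPL difference was then -0.11, of the opposite sign to the 0.78 in arrays 3 and 4 and the 1.11 in arrays 5 and 6. For AGL26 the couples were at 0.079, 0.059 and -0.18. The part of the strip pattern in the differences of the 3 genes was otherwise not tested.

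**Figure D3:**
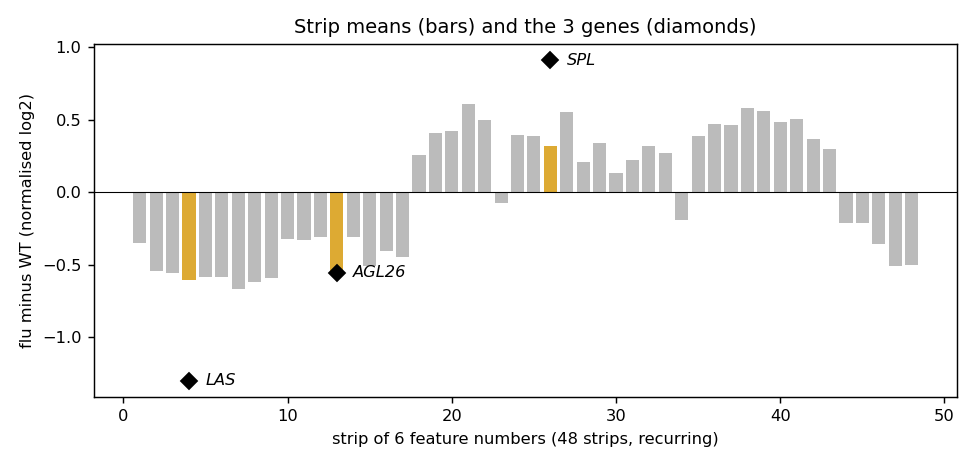
Mean log2 difference, flu minus WT, of each of the 48 strips of feature numbers (bars, each the mean over all features of the strip) and the differences of the 3 genes (diamonds, own strips in yellow). LAS lies at -1.30 below its strip, SPL at 0.91 above its strip, and AGL26 at the end of its strip's bar.

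Other ways of processing moved the 3 values less. These were an offset in place of the floor, no normalisation, arrays centred on their medians, and dim features left out. With them LAS lay between -1.47 and -1.16, SPL between 0.76 and 0.90 and AGL26 between -0.67 and -0.51. Leaving out 1 array or 1 couple gave -1.46 to -1.15 for LAS, 0.79 to 1.08 for SPL and -0.78 to -0.44 for AGL26. Among the 692 features with 1 gene, LAS had the 35th lowest difference, AGL26 the 178th lowest and SPL the 101st highest.

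**Figure D4:**
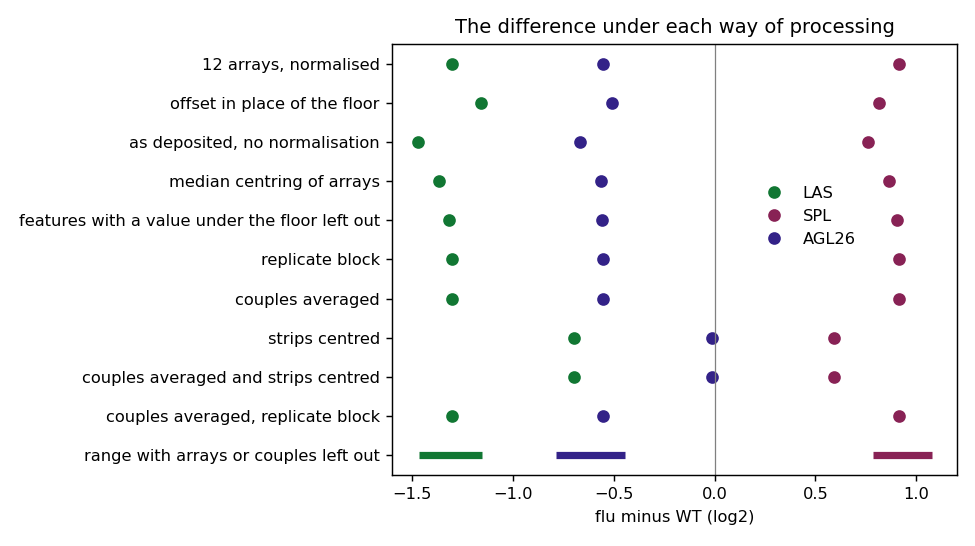
Flu minus WT on the log2 scale for the 3 genes under each way of processing (points), and the range with single arrays or couples left out (thick lines). LAS moves to -0.70, SPL to 0.59 and AGL26 to -0.013 where strips are centred, and LAS and SPL stay on their own side of 0 in all of these settings.

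Other genes of the same pathways were scarce among features with 1 gene. Of the 3439 features, 1877 had no listed gene and 870 listed several, so more such genes may be on the array. Among the latter, 2 features held a gene of the sporogenesis and ovule list. Of 108 genes listed by hand for the GRAS family, axillary and shoot meristems, sporogenesis and ovules, and the MADS-box family, the 3 genes above were the ones with a feature of their own. A search of RefSeq names for words that mark transcription regulators found 4 more. These are AT4G03090, named NDX or Nodulin Homeobox, AGL54 and AGL103 of the AGAMOUS-like series, and IAA31, an Aux/IAA protein of auxin response. The search did not return LAS or SPL, so it can have missed further regulators. In the limma fit over 12 arrays 1 of these 4 was lower in flu and 0 were higher. Of all 692 features with 1 gene 49.7% passed, and 26.6% passed as lower. The median log2 difference of the 4 was -0.25, against -0.0038 for the 692.

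AT4G03090 was lower in flu. Its intensity in WT was 0.517, 0.442, 0.696, 0.670, 0.373 and 0.494, and in flu 0.390, 0.345, 0.308, 0.268, 0.268 and 0.262. Of the 6 flu arrays 5 lay below every WT array, and flu array 1 lay above WT array 5. The log2 difference was -0.62 (limma adjusted p = 0.0058 over 12 arrays). It was lower in 6 of 6 pairs of same-numbered arrays. With couples averaged, where 33.2% of features with 1 gene passed, the call was lost (adjusted p = 0.075). With strips centred as well as couples averaged, where 29.2% passed, the difference was -0.85 (adjusted p = 0.022). Its strip averaged 0.24, the opposite sign.

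The AGAMOUS-like genes AGL54 and AGL103 did not pass. AGL54 ranged from 0.239 to 0.449 in WT, with a median of 0.329, and from 0.167 to 0.261 in flu, with a median of 0.175. Its log2 difference was -0.44 (limma adjusted p = 0.10) over 12 arrays and 0.067 with strips centred, as its strip averaged -0.51. AGL103 ranged from 0.389 to 0.688 in WT and from 0.584 to 1.03 in flu, and its medians were 0.666 and 0.654. Its log2 difference was 0.37 (adjusted p = 0.14), and -0.093 with strips centred. The 3 genes of the AGAMOUS-like series, AGL26 included, thus stood at -0.013, 0.067 and -0.093 once strips were centred. IAA31 was at exactly 0 on all arrays but WT array 2 (0.0386) and gave no direction.

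**Figure D5:**
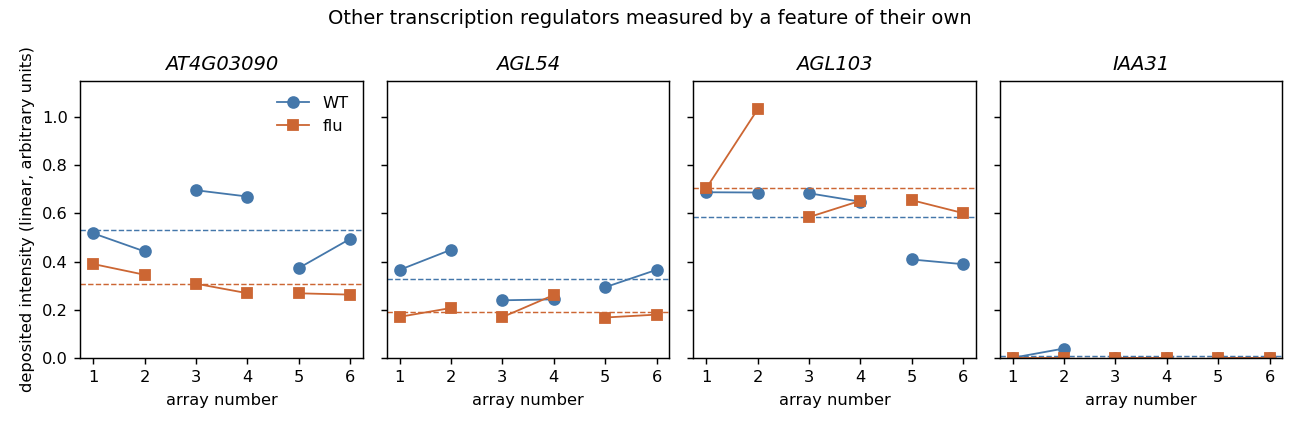
Deposited intensity (linear, arbitrary units) of the 4 other regulators found by name that have a feature of their own, by array number. Symbols, lines and dashed means are as in the plot of the 3 genes by array. AT4G03090 is lower in flu in every pair of same-numbered arrays, AGL54 and AGL103 overlap between genotypes, and IAA31 is listed at 0 on 11 of 12 arrays.

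For LAS, SPL and AGL26, the genes most alike in pattern over the 12 arrays were looked up. The search covered 608 other features with 1 gene and no value under the floor. Whether any of these genes is regulated by LAS, SPL or AGL26 was not tested. Likeness was Pearson's r of normalised log2 values, in which the genotype difference weighs most. The genes nearest to LAS were AT1G21660 (r = 0.97), LpxA, an acyltransferase of lipid A type synthesis (0.96), and AT4G30740 (0.96). LpxA shares the strip of LAS and averaged 2.59 in WT and 0.920 in flu. A total of 24 of the 608 had an r above 0.9 with LAS.

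Nearest to SPL were AT3G32930 (r = 0.95), CRR41, a factor for assembly of the thylakoid NDH complex (0.92), and PRA1.B6, a prenylated Rab acceptor (0.92). A total of 8 of the 608 had an r above 0.9 with SPL. Nearest to AGL26 were AT1G05340 (r = 0.93), GLR2.7, a glutamate receptor-like protein (0.92), and AT2G36480 (0.92). With strips centred these last 3 values were 0.73, 0.27 and 0.53. The values for LAS were then 0.94, 0.91 and 0.86, and those for SPL 0.90, 0.80 and 0.86.

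With genotype means subtracted, r describes how a gene varied with LAS, SPL or AGL26 around the genotype means, pooled over both genotypes. For AGL26 it was highest with AT3G50880 (0.94), SWAP70 (0.88) and AT1G05340 (0.87). For LAS it was highest with AT1G72540 (0.80), AT1G21660 (0.79) and AT2G29870 (0.78). AT1G72540 itself had a log2 difference of 0.85, opposite to LAS. For SPL it was highest with AT1G17160 (0.87), CUTA (0.82) and PSBW, a small subunit of photosystem II (0.82). With strips centred these values for SPL were 0.57, 0.51 and 0.57, and on the values as deposited PSBW was at 0.51 and CUTA at 0.67. The values with strips centred were 0.87, 0.76 and 0.79 for AGL26 and 0.68, 0.85 and 0.86 for LAS. As deposited, AT1G21660 fell to 0.63 with LAS, while AT1G72540 and AT2G29870 were at 0.81 and 0.83. The values for AGL26 as deposited were 0.92, 0.82 and 0.81. AT1G17160 and CUTA were lower in flu, at -0.61 and -1.13, so neither had the genotype difference of SPL. PSBW averaged 16.8 in WT and 20.4 in flu, with a log2 difference of 0.05 after normalisation. With genotype means subtracted, 0 of the 608 features had an r above 0.9 with LAS, 0 with SPL and 1 with AGL26. The genes named hold the highest of 608 values, over arrays that come in couples. Whether values of this size arise by chance was not tested. AT1G21660 was among the 3 nearest to LAS by both measures, and AT1G05340 among the 3 nearest to AGL26. Other named genes were also near by both. The measures share the same arrays and values, so nearness by both is not a separate observation. With genotype means subtracted, GLR2.7 and AT2G36480 had r = 0.835 and 0.838 with AGL26. AT3G32930 had 0.78 with SPL, and LpxA 0.76 with LAS.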

How the data were processed

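The deposited table held linear intensities for 3439 features on 12 arrays. How the authors scaled them is not given in the sources used here. A platform table listed exactly 1 gene for 692 features, of which 690 matched RefSeq (assembly TAIR10.1) by gene identifier. No coordinates are printed, since the build behind the array is not named. A floor of 0.0236, the 1st percentile of all intensities above 0, replaced lower values. Log2 values were then quantile normalised between arrays. Genotypes were compared over the 12 arrays without a block by the moderated, two-sided test of limma (version 3.58.1, R version 4.3.3), with p-values adjusted by Benjamini-Hochberg across every feature and a threshold of 0.05. The fit was run on simulated data with independent noise on each array. Those data held neither couples nor strips, so the run says nothing on how the fit handles them. LAS, SPL and AGL26, the gene lists and the alternatives, couples and strips included, were chosen with earlier results of these data known. Named genes are the 3 members, the 4 other regulators found by name, and for each member the 3 genes with the highest r over 12 arrays and with genotype means subtracted. The RefSeq names searched were symbols and synonyms. A search of these for RNA methyltransferases, a kind of protein AT5G26880 may encode, found 0 genes. The names of AT5G26880 itself hold no such word, so the search could not have found it. The 0 therefore does not show that no such gene was measured.

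As a check of pairing, the deviations from the genotype mean were correlated between the WT and the flu array of each number. The 6 values were 0.368 to 0.539, each above 0.1. Arrays of different numbers were not correlated, so these values cannot show that the numbers pair the arrays. Differences by array number are therefore a description, and the main fit used no block. P-values measure the spread between these arrays, which may be technical. The number of arrays limits the precision.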

Additional observations from a re-analysis of the deposited data

Results flagged for a closer look

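Among 45 groups of 6 arrays (each named gene in each genotype, except IAA31 in flu, which was at 0 throughout), 5 held 1 array set far apart from the remaining 5, where 1 in 20 groups, or 2.25, is the count taken for chance. All values here are on the normalised log2 scale. For SPL the array was flu array 1, with a value of -1.33, while the remaining flu arrays lay between -0.82 and -0.58. This is the array in which SPL overlapped WT. For AGL103 it was flu array 2, with a value of 0.068, while the remaining flu arrays lay between -0.77 and -0.46. Among the genes most like SPL, CRR41 had a value of -0.13 in flu array 5, with the rest between -0.51 and -0.38, and PSBW had a value of 4.03 in flu array 1, with the rest between 4.18 and 4.27. PSBW was named for its likeness to SPL, so its low flu array 1 is not a separate observation. IAA31 had a value of -5.04 in WT array 2, with the rest at the floor (-5.41).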

How the results depend on the processing

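With strips centred, with or without couples averaged, LAS stood at -0.70, SPL at 0.59 and AGL26 at -0.013, since this setting subtracts strip means. No other alternative moved the 3 genes by more than the SD between arrays. Leave-out ranges were -1.46 to -1.15, 0.79 to 1.08 and -0.78 to -0.44. The number of all features that passed, 1796, became 1193 with couples averaged, 956 with strips centred too, 1966 with the replicate block and 1542 to 1875 with arrays or couples left out. As deposited it was 1912, with 34.0% higher in flu against 44.0%, and the median of all features was -0.20 against -0.04. Of the 4 other regulators 1 passed. As deposited and with median centring 2 passed, AGL54 being added (-0.74 and -0.64). With strips centred 2 passed, IAA31 being added although listed at 0 on 11 arrays. With couples averaged, with or without the replicate block, 0 passed. With arrays or couples left out 1 to 2 passed, and AGL54 was added without WT array 3 or WT array 4 (-0.56 each) or both (-0.74). AGL103 and AGL54 turned to -0.093 and 0.067 with strips centred, with or without couples averaged, neither passing. The replicate block over 12 arrays changed no call of these 4 regulators (adjusted p = 0.013 for AT4G03090). Signal over background was not analysed here.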
